A study of Mus musculus with 15 samples.

Results

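The genes described here encode the Polycomb repressive complexes and the enzymes that write or erase methyl and acetyl marks on histones, 43 genes in all, followed in mouse epiblast-like cells (EpiLCs) while ERK signalling was switched on and then blocked. They were chosen by name and not by a cutoff on their values, with earlier results of these data known. Each symbol matched 1 Ensembl identifier among the 52636 in the deposited count table, and all 43 passed the filter on low counts, which kept 13451 genes. EpiLCs are a culture model of the formative epiblast, made from embryonic stem cells in medium with bFGF, Activin A and the tankyrase inhibitor XAV939. The line, CRAFR26, carries a c-RAF kinase construct that becomes active when 4-hydroxytamoxifen (4OHT) is given, and c-RAF acts on ERK through MEK. All 15 samples carried this construct, and every culture was first kept for 2 h in 250 nM PD17, an inhibitor of FGF receptors. The 0h group (n = 3) had no 4OHT, the 2h and 4h groups (n = 4 each) had 2 h and 4 h of 250 nM 4OHT, and the rev group (n = 4) had a MEK inhibitor for 2 h after its 4 h of 4OHT. Samples came from 2 clones, clone 4 and clone 8, with 1 clone 4 and 2 clone 8 libraries at 0h and 2 of each clone in the other groups. The submitters discarded 1 further 0h sample. The p-values measure the spread between libraries of 2 clones of 1 line, and nothing in the labels says that libraries of a clone came from separate cultures. No group had 4OHT without the construct, or the added hours without the MEK inhibitor, so these cannot be told apart from the signalling itself.

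Polycomb repressive complex 2 (PRC2) places methyl groups on lysine 27 of histone H3 (H3K27), and Polycomb repressive complex 1 (PRC1) attaches ubiquitin to histone H2A. Both keep developmental genes silent but poised in pluripotent cells, and both are found at CpG islands, where the CXXC protein KDM2B brings a variant form of PRC1. Trithorax-type enzymes work against them by methylating H3K4, and H3K27 demethylases remove the PRC2 mark. Methylation of H3K9 and removal of acetyl groups by histone deacetylases repress transcription by other routes, and the acetyltransferases EP300 and CREBBP mark active enhancers.

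The start regions of these genes are rich in CG dinucleotides, which is shown here for 3 of the genes with the largest rises at 4h and for 1 that fell. The 250 bases before the start were taken from RefSeq on GRCm38.p6, written 5′ to 3′ on the strand of the gene, with every CG dinucleotide in capitals. None of these windows overlapped an exon annotated in GENCODE M21. Where RefSeq listed several starts, the one farthest upstream is shown.
Bmi1, chr2:18676768-18677017, + strand: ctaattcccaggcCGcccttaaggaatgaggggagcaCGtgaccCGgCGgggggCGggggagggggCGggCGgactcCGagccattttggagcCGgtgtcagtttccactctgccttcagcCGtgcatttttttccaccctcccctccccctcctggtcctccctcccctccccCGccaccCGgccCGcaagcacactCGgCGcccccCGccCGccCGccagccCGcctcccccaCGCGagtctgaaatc
Jarid2, chr13:44730524-44730773, + strand: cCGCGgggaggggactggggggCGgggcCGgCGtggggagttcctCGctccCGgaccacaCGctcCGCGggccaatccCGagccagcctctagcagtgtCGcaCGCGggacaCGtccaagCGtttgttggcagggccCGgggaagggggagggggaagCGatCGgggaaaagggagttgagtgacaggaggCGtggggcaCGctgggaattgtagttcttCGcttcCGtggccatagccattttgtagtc
Kmt2c, chr5:25498784-25499033, − strand: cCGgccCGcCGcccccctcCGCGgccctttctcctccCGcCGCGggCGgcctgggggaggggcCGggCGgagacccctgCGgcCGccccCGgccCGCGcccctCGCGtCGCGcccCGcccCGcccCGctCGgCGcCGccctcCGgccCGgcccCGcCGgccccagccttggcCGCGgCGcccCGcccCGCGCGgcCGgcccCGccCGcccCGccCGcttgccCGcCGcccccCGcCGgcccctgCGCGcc
Hdac2, chr10:36974294-36974543, + strand: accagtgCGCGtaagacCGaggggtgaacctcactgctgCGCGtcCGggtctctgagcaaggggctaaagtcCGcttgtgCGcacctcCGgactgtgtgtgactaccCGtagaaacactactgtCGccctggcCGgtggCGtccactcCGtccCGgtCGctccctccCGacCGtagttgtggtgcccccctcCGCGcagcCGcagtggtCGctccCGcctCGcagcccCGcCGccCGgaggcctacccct
These windows held 21 CG dinucleotides for Bmi1, 23 for Jarid2, 48 for Kmt2c and 27 for Hdac2. Over the 41 starts listed for 32 of the 43 genes the median was 23, against 6 over all 32851 starts listed. Motifs of factors downstream of ERK were searched on both strands of the same windows. The ETS core CCGGAAG was found at 1 of the 41 starts (Setdb1) and at 6.91% of all starts, the AP-1 site TGANTCA at 1 (Pcgf3) and 6.75%, the CRE TGACGTCA at 1 (Cbx8) and 1.55%, and the CArG box at 0 and 1.47%. These are matches of letters in a short window and no record of binding.

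Depth differed between the groups. Total counts were 8667880 to 13004556 in the 0h, 2h and rev libraries and 1552022 to 6658950 at 4h, where mitochondrial genes took 7.209% to 12.36% of the counts against 2.671% to 6.982% elsewhere. The top 20 genes by abundance held 65.61% to 79.47% at 4h and 50.99% to 73.23% elsewhere. This share also varied within a group, from 52.38% to 71.23% at 0h. With these 20 and mitochondrial genes set aside, depth was 525094 to 1456849 at 4h and 2310615 to 6237654 in the other libraries. A count of 3 stood for 0.6829 to 1.833 CPM (each count divided by its library's total in units of 1e+06, after TMM scaling) at 4h and for 0.1607 to 0.4229 CPM in the other libraries. The summed level of 10 of 10 epiblast and EpiLC markers was 1690 to 1960 CPM at 0h, 1600 to 1850 at 2h, 1110 to 1260 at 4h, with 1390 to 1590 in rev. The markers did not move as one: from 0h to 4h the mean level went from 935 to 416 CPM for Dnmt3b, 329 to 222 for Dnmt3a and 168 to 99.0 for Pou5f1, but from 22.3 to 111 for Sox2, 12.3 to 25.1 for Otx2 and 50.5 to 72.8 for Zic2. Over the same groups, 8 of 8 naive stem cell markers summed to 20.9 to 29.3, 26.1 to 31.2, 62.7 to 216 and 28.4 to 39.1 CPM. The 3 neural markers, Sox1, Pax6 and Neurog2, summed to 2.86 to 4.97, 3.21 to 3.89, 37.9 to 50.5 and 6.95 to 10.1 CPM, with Neurog2 at 0 in every 4h library. Of the 6 fibroblast markers, Col1a2 and Lum were at 0 in every 4h library, and the sum lay between 0.377 and 17.4 CPM over all groups. The 7 mesendoderm markers summed to 3.28 to 4.32, 5.15 to 7.26, 5.92 to 12.3 and 8.61 to 13.5 CPM in the same order of groups, so that every later sum lay above those of 0h. From 0h to 4h the mean of Eomes went from 2.0 to 6.12 CPM, and Mixl1 and Gsc were also higher. T, Sox17, Foxa2 and Mesp1 were lower. Apart from Eomes, the means at 4h were at most 1.15 CPM, where a count of 3 stood for 0.6829 to 1.833 CPM. The 5 trophoblast markers summed to 2.67 to 3.51, 2.53 to 5.13, 5.65 to 12.6 and 3.10 to 5.89 CPM, with all 4h libraries above those of 0h. Of these markers, Elf5 was at 0 in every 4h library. The 5 primitive endoderm markers summed to 4.01 to 5.09, 4.07 to 4.99, 2.64 to 7.16 and 4.23 to 7.12 CPM, and these ranges overlapped. Depth, mitochondrial share and these markers moved with the 4h group, and their part in the changes below was not tested. In bulk RNA, fewer cells of a type and less RNA per cell cannot be told apart. A sum over 6 ERK targets (Dusp6, Spry2, Spry4, Egr1, Etv4, Etv5) was 108 to 138 CPM at 0h, 695 to 1370 at 2h, 294 to 606 at 4h, with 189 to 234 in rev. Not every target followed the sum. Mean levels at 0h, 2h, 4h and rev were 20.4, 13.8, 16.2 and 11.9 CPM for Etv4 and 91.5, 85.4, 131 and 82.4 for Etv5. Those of Egr1 were 1.97, 599, 119 and 71.3 CPM, and Dusp6, Spry2 and Spry4 were also highest at 2h.

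Before induction the genes spanned a wide range of levels. Per kilobase of exon, Wdr5, a shared subunit of H3K4 methyltransferase complexes, stood highest at 16.9 ± 0.119 CPM per kb (SD, n = 3). It was followed by the demethylase Kdm1a at 16.6 ± 0.385, the deacetylase Hdac2 at 15.9 ± 1.41, the PRC2 subunit Suz12 at 15.7 ± 1.63 and Hdac1 at 15.5 ± 0.826. Neighbours among these 5 differed by less than the larger of their SDs. Exon length here is the union of all annotated exons, which can be far longer than any transcript. For Ash2l it is 8969 bases, against 3702 in its longest transcript, and for Wdr5 3596 against 2890. The order of the genes therefore holds for this measure of length only. The lowest were the PRC1 subunits Cbx8 at 0.152 ± 0.0464 CPM per kb and Pcgf5 at 0.353 ± 0.134, then the PRC2 accessory gene Phf19 at 0.545 ± 0.106 and Ring1 at 1.16 ± 0.160. Cbx8 had between 1 and 22 counts in a library and Pcgf1 between 2 and 53, so changes of these genes were poorly resolved. Group levels below are means ± SD in CPM, with n = 3 at 0h and n = 4 in each other group.

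Few of the genes changed after 2 h of induction, and many did after 4 h, mostly upward. A gene was called when its adjusted p was under 0.05 in edgeR's quasi-likelihood test with Benjamini-Hochberg adjustment over all 13451 genes. In 2h vs 0h, 2 of 43 were called higher (4.65%, against 3.98% of all tested genes) and 3 lower (6.98%, against 2.46%). In 4h vs 0h, 19 were higher (44.2%, against 20.5% of all) and 4 lower (9.3%, against 18.9%). In 4h vs 2h, 17 were higher (39.5%, against 19.7%) and 4 lower (9.3%, against 19.2%). After MEK inhibition the balance turned, and in rev vs 4h 3 were higher (6.98%, against 15.1%) and 15 lower (34.9%, against 15.6%). In rev vs 0h, 5 were higher (11.6%, against 6.49%) and 2 lower (4.65%, against 4.66%). The median log2 fold change of the 43 genes was 0.08 in 2h vs 0h, 0.26 in 4h vs 0h, -0.15 in rev vs 4h and 0.04 in rev vs 0h, and that of all tested genes was 0.01, 0.03, 0.02 and 0.02. The counts against 0h leaned on its only clone 4 library: without 0h clone4_1, 0 were higher and 1 lower in 2h vs 0h, 0 were lower in 4h vs 0h, and 1 was higher and 1 lower in rev vs 0h. The higher count in 2h vs 0h was also 0 without 0h clone8_2, 2h clone4_2 or 2h clone8_1, 1 without 0h clone8_1, 4 without 2h clone4_1 and 7 without 2h clone8_2. That in rev vs 0h was 3 without 0h clone8_1, rev clone4_1, rev clone4_2 or rev clone8_1 and 2 without rev clone8_2, and the lower count was 1 without rev clone4_2. These comparisons share libraries, so their counts are not independent of each other. The scaling and the length and GC content of the genes bear on these counts, as given at the end.

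**Figure D1:**
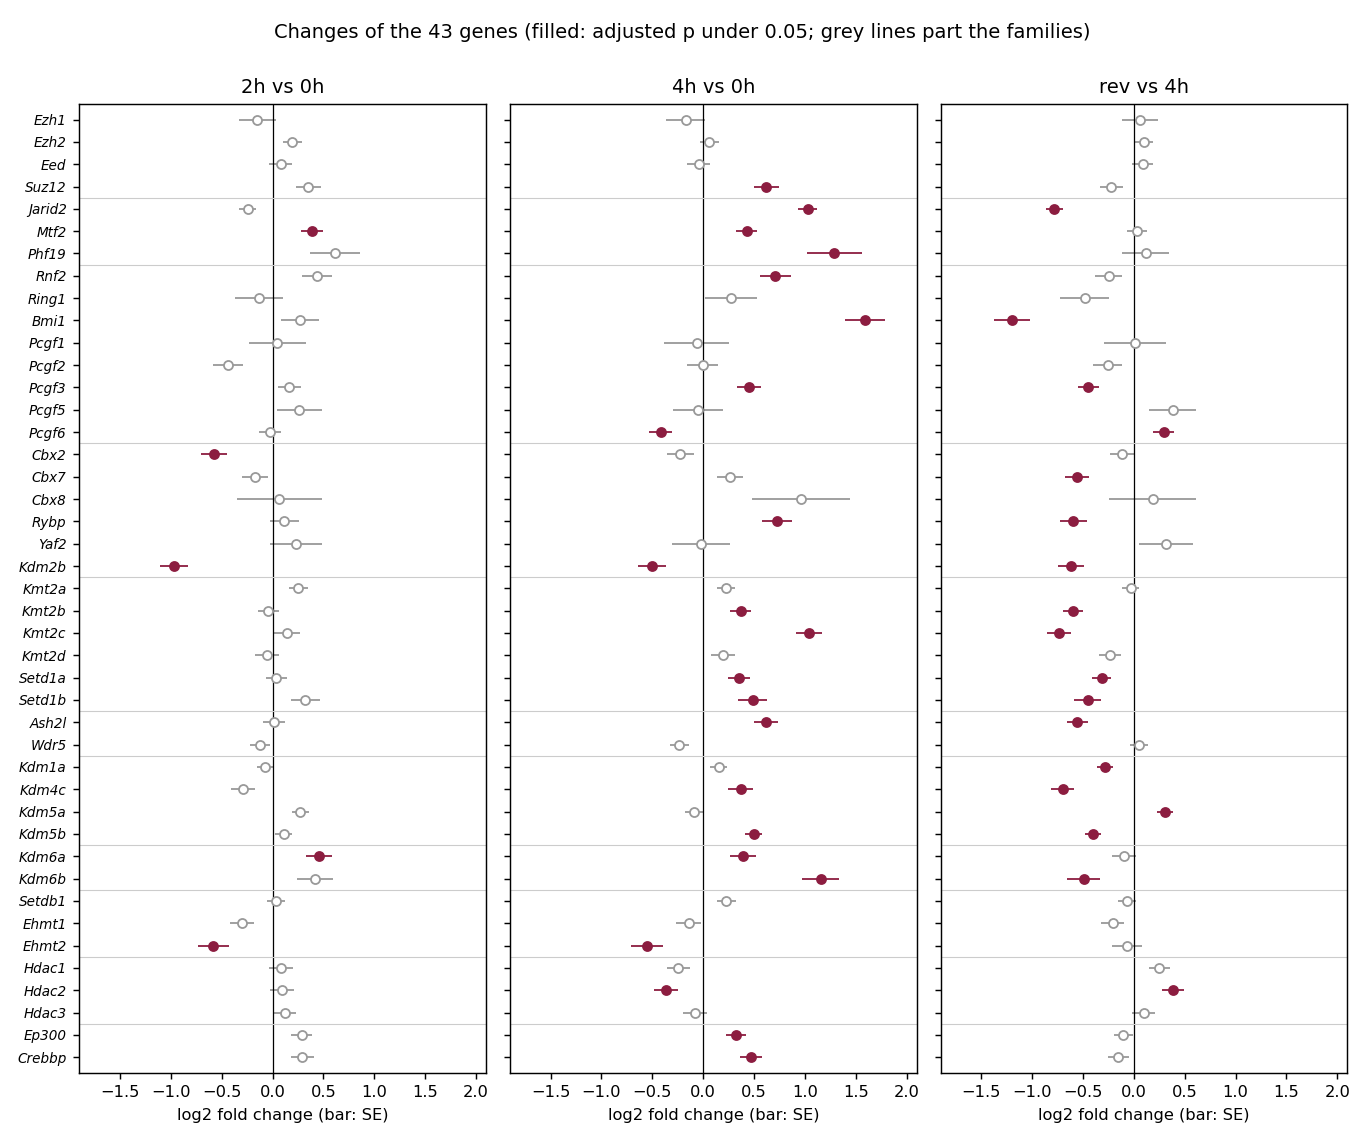
Log2 fold change (horizontal axis, bars are the SE of the model) of each of the 43 genes, with 1 panel each for 2h vs 0h, 4h vs 0h, and the rev group against 4h, families parted by grey lines, and filled points for adjusted p under 0.05. In 4h vs 0h 19 filled points lie right of 0 and 4 left, and in rev vs 4h 3 lie right and 15 left.

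Of the PRC2 core, 1 of 4 genes rose in 4h vs 0h, Suz12, against 20.5% of all tested genes. The core consists of the methyltransferases EZH2 and EZH1, the reader EED and the scaffold SUZ12. At 0h, Suz12 had 68.3 CPM in clone 4 and 83.5 and 80.7 CPM in clone 8, and at 2h it had 79.9 and 109.6 in clone 4 and 112 and 88.3 in clone 8. Suz12 at 4h had 108 and 99.5 in clone 4 and 129 and 135 in clone 8, and in rev 109 and 104 in clone 4 and 91.4 and 96.8 in clone 8. All 4h and rev libraries lay above the 0h libraries, and the 2h range overlapped the 0h range. Suz12 rose in 4h vs 0h (log2 fold change 0.62, SE 0.123, adjusted p = 0.000425), a change of -0.09 with scaling by total count and of 0.35 with the GC trend removed. In rev vs 0h it was also higher (log2 fold change 0.40, SE 0.123, adjusted p = 0.0393), a call lost without 0h clone4_1, 0h clone8_1, 0h clone8_2, 4h clone8_1, rev clone4_1, rev clone4_2 or rev clone8_2 (adjusted p of 0.0523 to 0.245). It was also lost with the trend removed for GC (0.19, adjusted p = 0.298) or length (0.36, adjusted p = 0.0684). The catalytic subunit Ezh2 had 56.2 ± 1.35 CPM at 0h, 64.1 ± 5.03 at 2h, 58.5 ± 5.07 at 4h, with 62.8 ± 2.5 in rev, and was not called in any group comparison. Its log2 fold change was 0.06 in 4h vs 0h (SE 0.0961, adjusted p = 0.64). Eed (31.7 ± 1.81 CPM at 0h and 31.0 ± 2.99 at 4h) and the less abundant Ezh1 (10.6 ± 2.16 and 9.28 ± 2.54) were not called either. The exons of Suz12 overlap a lincRNA on the opposite strand over 178 bases, and how strand was handled is not given in the sources used here.

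All 3 accessory subunits of PRC2 were called higher in 4h vs 0h (20.5% of all tested genes were), with different courses. Mtf2 was already higher at 2h, Jarid2 rose between 2h and 4h, and Phf19 differed between clones. JARID2, a catalytically inactive Jumonji protein, helps recruit PRC2 and tunes its activity, while MTF2 and PHF19 are Polycomb-like proteins that bind DNA and methylated histone tails. At 0h, Jarid2 had 122 CPM in clone 4 and 138 and 137 CPM in clone 8, and at 2h it had 106 and 94.4 in clone 4 and 119 and 123 in clone 8. Jarid2 at 4h had 269 and 266 in clone 4 and 262 and 267 in clone 8, and in rev 163 and 149 in clone 4 and 159 and 148 in clone 8. The 4 libraries of 4h lay well above every other library and within a narrow band, and rev libraries lay above those of 0h and 2h. Jarid2 rose in 4h vs 0h (log2 fold change 1.03, SE 0.0897, adjusted p = 1.82e-08) and from 2h to 4h (log2 fold change 1.27, SE 0.0816, adjusted p = 2.46e-10), and fell in rev vs 4h (log2 fold change -0.78, SE 0.0808, adjusted p = 3.16e-07). Leaving out any 1 library kept these 3 calls, with log2 fold changes of 0.98 to 1.04, 1.18 to 1.31 and -0.83 to -0.74. It was not called in 2h vs 0h (-0.25, adjusted p = 0.095), where all 4 libraries of 2h lay below 2 of the 3 at 0h.

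At 0h, Mtf2 had 44.5 CPM in clone 4 and 52.9 and 49.4 CPM in clone 8, and at 2h it had 58.7 and 69.7 in clone 4 and 69.3 and 57.7 in clone 8. Mtf2 at 4h had 65.4 and 66.4 in clone 4 and 71.0 and 59.6 in clone 8, and in rev 62.9 and 73.0 in clone 4 and 62.7 and 70.1 in clone 8. All libraries of 2h, 4h and rev lay above those of 0h, with no order among the later groups. Mtf2 rose in 2h vs 0h (log2 fold change 0.39, SE 0.106, adjusted p = 0.0292), a call lost without 0h clone4_1, 0h clone8_2, 2h clone4_2 or 2h clone8_1 (adjusted p of 0.085 to 0.249). It was higher in 4h vs 0h (log2 fold change 0.43, SE 0.107, adjusted p = 0.00324), where scaling by total count gave -0.29, and in rev vs 0h (log2 fold change 0.46, SE 0.106, adjusted p = 0.00686), a call lost without 0h clone4_1 (0.38, adjusted p = 0.0993). Mtf2 has the lowest GC content of the 43 genes, 38.2%, and with the GC trend removed none of its 3 calls held: the change was 0.14 in 2h vs 0h (adjusted p = 0.482), 0.04 in 4h vs 0h (adjusted p = 0.794) and 0.17 in rev vs 0h (adjusted p = 0.3). The exons of Mtf2 share 395 bases with Tmed5 on the opposite strand.

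At 0h, Phf19 had 3.35 CPM in clone 4 and 2.34 and 2.54 CPM in clone 8, and at 2h it had 5.11 and 5.22 in clone 4 and 4.10 and 3.80 in clone 8. Phf19 at 4h had 15.3 and 11.1 in clone 4 and 3.64 and 3.39 in clone 8, and in rev 10.7 and 10.3 in clone 4 and 6.49 and 5.40 in clone 8. The clones parted at 4h, with both clone 4 libraries above every library of 2h and both clone 8 libraries below every library of 2h, and in rev the clone 4 libraries again lay above those of clone 8. Phf19 was called higher in 4h vs 0h (log2 fold change 1.29, SE 0.268, adjusted p = 0.000642) and in rev vs 0h (log2 fold change 1.41, SE 0.252, adjusted p = 0.000771). Its rise in 4h vs 2h (log2 fold change 0.67, SE 0.237, adjusted p = 0.0278) was lost without 2h clone4_1, 2h clone4_2, 4h clone4_1 or 4h clone4_2 (adjusted p of 0.0902 to 0.131), and with the trend removed for GC (0.52, adjusted p = 0.0687) or length (0.53, adjusted p = 0.0673). In 4h vs 0h it was called in clone 4 (1.95, adjusted p = 9.66e-05) and not in clone 8 (0.54, adjusted p = 0.146), and the difference between clones was tested from 2h to 4h. In clone 4 the change in 4h vs 2h was 1.32 (SE 0.236, adjusted p = 0.000406) and in clone 8 it was -0.16 (SE 0.257, adjusted p = 0.686), a difference of -1.48 (SE 0.347, adjusted p = 0.0206). That call was lost without 2h clone4_1, 2h clone4_2, 2h clone8_1, 4h clone4_1, 4h clone8_1 or 4h clone8_2 (adjusted p of 0.0545 to 0.0655). With 9 to 153 counts in a library, Phf19 was among the shallowest of the genes given by library.

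**Figure D2:**
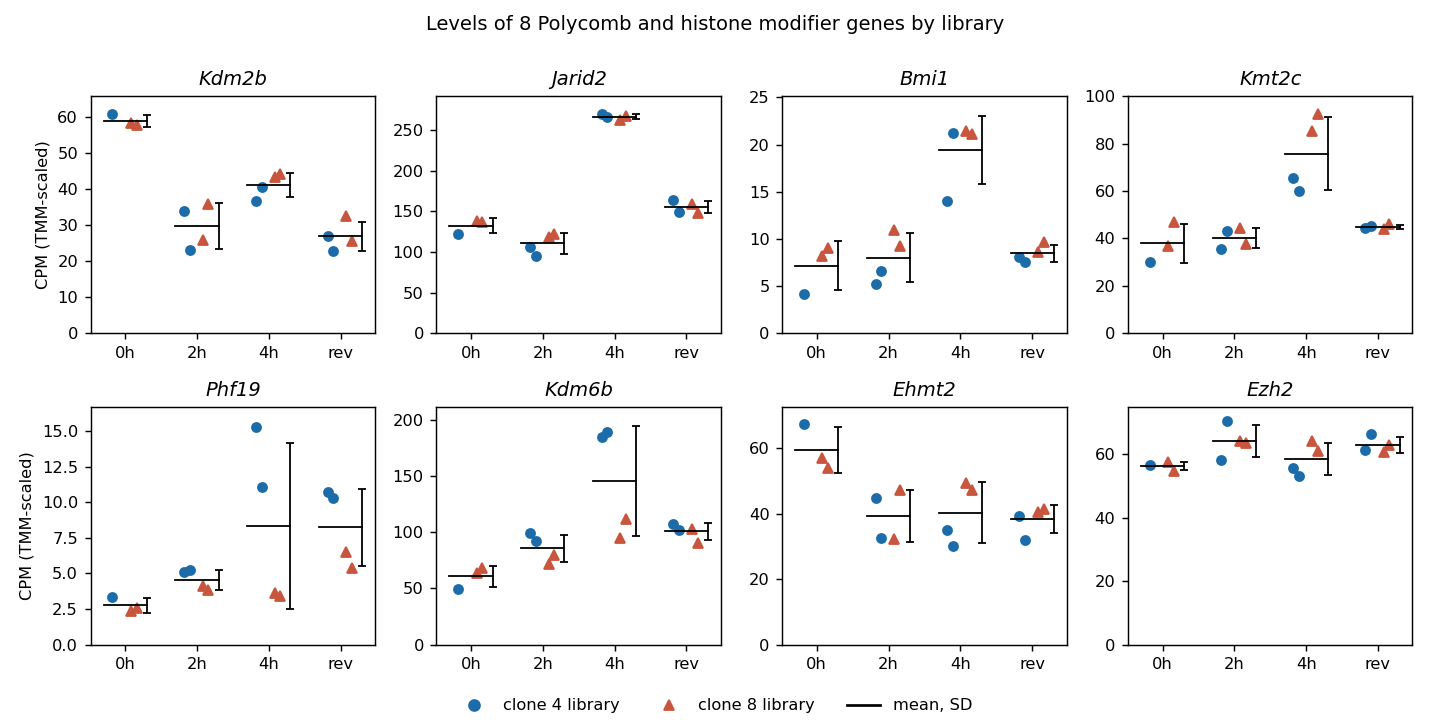
Level in CPM (vertical axes from 0, TMM-scaled) of 8 genes in each library of the 4 groups, with circles for clone 4, triangles for clone 8, and lines and bars for the mean and SD. Jarid2, Bmi1 and Kmt2c stand highest at 4h, Kdm2b is lower in every library of 2h, 4h and rev than at 0h, and Phf19 and Kdm6b part by clone at 4h.

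Among the RING and PCGF genes of PRC1, Bmi1 had the largest rise of all 43 genes at 4h. RNF2 and RING1 are the ubiquitin ligases of PRC1, and each complex holds 1 PCGF protein, which decides its type; BMI1 (PCGF4) and PCGF2 mark the canonical complexes and PCGF1, PCGF3, PCGF5 and PCGF6 the variant ones. At 0h, Bmi1 had 4.21 CPM in clone 4 and 8.16 and 9.09 CPM in clone 8, and at 2h it had 5.22 and 6.63 in clone 4 and 10.99 and 9.21 in clone 8. Bmi1 at 4h had 14.1 and 21.2 in clone 4 and 21.4 and 21.1 in clone 8, and in rev 8.13 and 7.54 in clone 4 and 8.60 and 9.65 in clone 8. Every 4h library lay above every other library, and 4h clone4_1, the shallowest library, lay below the other 4h libraries. Bmi1 rose in 4h vs 0h (log2 fold change 1.59, SE 0.197, adjusted p = 2.14e-06), which is 3.02-fold, and in 4h vs 2h (log2 fold change 1.32, SE 0.176, adjusted p = 4.94e-06). It fell in rev vs 4h (log2 fold change -1.20, SE 0.176, adjusted p = 2.47e-05), and its level in rev was not called different from 0h (0.40, adjusted p = 0.184). Within clone 4 it was still higher in rev vs 0h (0.89, adjusted p = 0.0474), and within clone 8 the change was 0.09 (adjusted p = 0.878), a difference that was not tested. These 3 calls held without any 1 library, with the lowest rise in 4h vs 0h, 1.38, without 0h clone4_1. In rev vs 4h the change was -1.19 in clone 4 and -1.22 in clone 8. Bmi1 was also higher in clone 8 than in clone 4 over all groups (log2 fold change 0.52, SE 0.130, adjusted p = 0.00691).

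At 0h, Rnf2 had 29.6 CPM in clone 4 and 31.3 and 36.0 CPM in clone 8, and at 2h it had 35.1 and 52.0 in clone 4 and 53.4 and 35.5 in clone 8. Rnf2 at 4h had 50.7 and 60.0 in clone 4 and 53.0 and 49.0 in clone 8, and in rev 44.4 and 53.4 in clone 4 and 39.5 and 42.3 in clone 8. All 4h and rev libraries lay above those of 0h, and at 2h clone4_2 and clone8_1 stood higher than their partners. These libraries also stood above the others of 2h for Suz12, Mtf2 and Kdm6a, and below them for Kdm2b and Ehmt2. Jarid2, Phf19 and Bmi1 showed such a split only within each clone. There, 2h clone4_2 and 2h clone8_1 stood above their partners for Bmi1 and, by little, for Phf19. For Jarid2 they stood below their partners. Mitochondrial genes took 6.982% of the counts in 2h clone4_2 and 6.03% in 2h clone8_1, against 2.781% in 2h clone4_1 and 3.251% in 2h clone8_2. A link of this share to the levels was not tested. Rnf2 rose in 4h vs 0h (log2 fold change 0.71, SE 0.150, adjusted p = 0.00076), although scaling by total count gave 0.00 and removal of the GC trend 0.37. Its call in rev vs 0h (log2 fold change 0.46, SE 0.148, adjusted p = 0.0463) was lost without 0h clone4_1, 0h clone8_1, 4h clone4_1, 4h clone8_1, 4h clone8_2, rev clone4_1, rev clone4_2, rev clone8_1 or rev clone8_2 (adjusted p of 0.0506 to 0.3). It was also lost with the trend removed for GC (0.20, adjusted p = 0.271) or length (0.43, adjusted p = 0.0729). Its exons share 158 bases with Trmt1l on the opposite strand. The paralog Ring1, at 3.76 ± 0.517 CPM at 0h and 4.4 ± 1.61 at 4h, was not called.

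At 0h, Pcgf6 had 41.1 CPM in clone 4 and 36.7 and 32.1 CPM in clone 8, and at 2h it had 35.5 and 37.9 in clone 4 and 35.3 and 35.0 in clone 8. Pcgf6 at 4h had 24.4 and 25.7 in clone 4 and 31.6 and 27.5 in clone 8, and in rev 33.2 and 33.1 in clone 4 and 34.7 and 33.3 in clone 8. The 4h libraries lay below all others, and the 2h, rev and 0h libraries overlapped. Pcgf6, whose protein defines a variant PRC1 known from germ-cell gene silencing in stem cells, fell in 4h vs 0h (log2 fold change -0.42, SE 0.111, adjusted p = 0.00497) and in 4h vs 2h (log2 fold change -0.39, SE 0.104, adjusted p = 0.00503), and rose in rev vs 4h (log2 fold change 0.29, SE 0.104, adjusted p = 0.0366). With the GC trend removed the change in 4h vs 0h was -0.63. The first call was lost without 0h clone4_1 (-0.31, adjusted p = 0.077) and the last was lost without 4h clone4_1, 4h clone4_2, 4h clone8_2, rev clone4_1, rev clone8_1 or rev clone8_2 (adjusted p of 0.0619 to 0.106). Of the other PCGF genes, Pcgf3 went from 42.5 ± 5.56 CPM at 0h to 57.6 ± 3.58 at 4h and 42.3 ± 4.08 in rev, and was called higher in 4h vs 0h (0.45, adjusted p = 0.00425) and lower in rev vs 4h (-0.45, adjusted p = 0.00302). Pcgf2 was called only in 4h vs 2h (0.43, adjusted p = 0.0185), and Pcgf1 and Pcgf5, at 3.05 and 4.46 CPM at 0h, were not called in any group comparison.

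Of the 6 genes of the CBX, RYBP and KDM2B group, 2 fell in 2h vs 0h and 4 rose in 4h vs 2h. The shares of all tested genes were 2.46% and 19.7%. Kdm2b had the largest fall of the 43 genes at 2h, and it was the only one called in all 5 group comparisons. KDM2B binds unmethylated CG dinucleotides and brings PCGF1-type PRC1 to CpG islands. At 0h, Kdm2b had 60.9 CPM in clone 4 and 58.4 and 57.7 CPM in clone 8, and at 2h it had 34.1 and 23.0 in clone 4 and 26.0 and 36.0 in clone 8. Kdm2b at 4h had 36.7 and 40.5 in clone 4 and 43.5 and 44.1 in clone 8, and in rev 26.9 and 22.7 in clone 4 and 32.4 and 25.6 in clone 8. All libraries of 2h, 4h and rev lay below all of 0h, and each 4h library lay above each of 2h and rev. Kdm2b fell in 2h vs 0h (log2 fold change -0.97, SE 0.134, adjusted p = 8.69e-05), by 1.10 in clone 4 (adjusted p = 0.0037) and 0.90 in clone 8 (adjusted p = 0.00718). It was lower in 4h vs 0h (log2 fold change -0.50, SE 0.136, adjusted p = 0.00597), a call lost without 0h clone4_1 (-0.41, adjusted p = 0.0593). It rose in 4h vs 2h (log2 fold change 0.47, SE 0.128, adjusted p = 0.0058), a change of -0.09 with scaling by total count and of 0.29 (adjusted p = 0.119) with the length trend removed, and fell again in rev vs 4h (log2 fold change -0.62, SE 0.128, adjusted p = 0.000898). In rev vs 0h it was lower (log2 fold change -1.12, SE 0.135, adjusted p = 1.45e-05), 2.17-fold, and remained called without any 1 library (-1.24 to -1.03), as did 2h vs 0h (-1.08 to -0.88). The gene lies at chr5:122870665-122989823 (GRCm38, − strand), and 950 bases of its exons are shared with 3 other genes, among them Rnf34 on the opposite strand.

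The chromodomain genes changed less. CBX2, CBX7 and CBX8 are chromodomain readers of methylated H3K27 in canonical PRC1. At 0h, Cbx2 had 29.1 CPM in clone 4 and 23.3 and 28.1 CPM in clone 8, and at 2h it had 20.8 and 19.3 in clone 4 and 15.8 and 16.4 in clone 8. Cbx2 at 4h had 20.8 and 20.98 in clone 4 and 25.7 and 24.1 in clone 8, and in rev 20.8 and 20.0 in clone 4 and 20.2 and 23.9 in clone 8. All 2h libraries lay below all 0h libraries, the 4h and rev libraries reached into the 0h range, and the lowest 4h library had the same 20.8 CPM as the highest of 2h. Cbx2 fell in 2h vs 0h (log2 fold change -0.57, SE 0.130, adjusted p = 0.00873), a call lost without 0h clone4_1 (-0.50, adjusted p = 0.115) or with the GC trend removed (-0.40, adjusted p = 0.0931). It rose in 4h vs 2h (log2 fold change 0.35, SE 0.125, adjusted p = 0.03), where scaling by total count gave -0.18, and this call was lost without 0h clone8_2, 2h clone8_1, 2h clone8_2, 4h clone8_1 or 4h clone8_2 (adjusted p of 0.0568 to 0.109), and with the trend removed for GC (0.20, adjusted p = 0.218) or length (0.21, adjusted p = 0.204). Cbx7 had 64.8 ± 2.29 CPM at 0h, 56.5 ± 3.99 at 2h, 77.0 ± 17.8 at 4h, with 51.9 ± 6.19 in rev, and was called higher in 4h vs 2h (0.43, adjusted p = 0.006) and lower in rev vs 4h (-0.56, adjusted p = 0.00102). In 4h vs 2h the change was 0.10 in clone 4 (adjusted p = 0.623) and 0.74 in clone 8 (adjusted p = 0.000344). In rev vs 4h it was -0.34 (adjusted p = 0.0844) and -0.75 (adjusted p = 0.000374). Neither difference between clones was called. Rybp, which encodes the subunit that takes the place of CBX proteins in variant PRC1, rose in 4h vs 0h (0.72, adjusted p = 0.00048) and fell in rev vs 4h (-0.60, adjusted p = 0.00167). Its paralog Yaf2 and Cbx8 were not called in any group comparison. Cbx8 had 0.560 ± 0.171 CPM at 0h and 1.10 ± 0.723 at 4h, near the floor of detection.

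Of the 6 H3K4 methyltransferases, 4 rose in 4h vs 0h (20.5% of all tested genes did) and 4 fell in rev vs 4h (15.6% of all did). KMT2A and KMT2B methylate promoters, KMT2C and KMT2D enhancers, and SETD1A and SETD1B carry out most trimethylation at active promoters. At 0h, Kmt2c had 30.2 CPM in clone 4 and 36.6 and 46.9 CPM in clone 8, and at 2h it had 35.4 and 43.1 in clone 4 and 44.5 and 37.7 in clone 8. Kmt2c at 4h had 65.4 and 60.2 in clone 4 and 85.4 and 92.4 in clone 8, and in rev 44.3 and 45.1 in clone 4 and 44.1 and 46.2 in clone 8. Each 4h library lay above each other library, clone 8 above clone 4, while rev libraries lay within a band narrower than that of 0h. Kmt2c rose in 4h vs 0h (log2 fold change 1.04, SE 0.130, adjusted p = 2.54e-06) and from 2h to 4h (log2 fold change 0.90, SE 0.118, adjusted p = 4.04e-06) and fell in rev vs 4h (log2 fold change -0.74, SE 0.117, adjusted p = 6.42e-05). These calls held without any 1 library. The paralog Kmt2d, at 171 ± 21.5 CPM at 0h and 197 ± 15.3 at 4h, was not called (0.20, adjusted p = 0.198). Kmt2c has the longest union of exons of the 43 genes, 20291 bases, and Kmt2d 19931. Their longest single transcripts have 14967 and 19823 bases.

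At 0h, Setd1b had 50.5 CPM in clone 4 and 35.5 and 42.3 CPM in clone 8, and at 2h it had 73.7 and 56.3 in clone 4 and 42.2 and 47.6 in clone 8. Setd1b at 4h had 57.4 and 51.8 in clone 4 and 68.1 and 64.1 in clone 8, and in rev 50.1 and 44.0 in clone 4 and 43.1 and 40.9 in clone 8. The highest were 2h clone4_1 and both clone 8 libraries of 4h, and every 4h library lay above those of 0h and rev. Setd1b was called higher in 4h vs 0h (log2 fold change 0.49, SE 0.145, adjusted p = 0.011), where scaling by total count gave -0.22, and lower in rev vs 4h (log2 fold change -0.45, SE 0.134, adjusted p = 0.0131). The first call was lost without 0h clone8_1, 4h clone8_1 or 4h clone8_2 (adjusted p of 0.053 to 0.077) and the second was lost without 4h clone8_1, 4h clone8_2 or rev clone4_2 (adjusted p of 0.0505 to 0.0617). With the length trend removed the values were 0.26 (adjusted p = 0.199) and -0.30 (adjusted p = 0.121). Between 2h and 4h its log2 fold change was -0.25 in clone 4 (SE 0.145, adjusted p = 0.209) and 0.56 in clone 8 (SE 0.144, adjusted p = 0.00724), a difference of 0.81 (SE 0.204, adjusted p = 0.0329). That difference was lost without 0h clone8_2, 2h clone4_1, 2h clone8_1, 4h clone4_2, 4h clone8_1, 4h clone8_2, rev clone4_2, rev clone8_1 or rev clone8_2 (adjusted p of 0.0509 to 0.197), and with the length trend removed (0.83, adjusted p = 0.0607). Kmt2b rose in 4h vs 0h (0.37, adjusted p = 0.00859) and fell in rev vs 4h (-0.60, adjusted p = 7.91e-05), and so did Setd1a (0.35, adjusted p = 0.0108, and -0.32, adjusted p = 0.0163). Of the 6795 exon bases of Setd1a, 3552 are shared with other gene models, mainly Gm49388 on the same strand, so its counts are uncertain. Kmt2a, at 94.3 ± 8.19 CPM at 0h and 114 ± 6.38 at 4h, was not called in 4h vs 0h (0.22, adjusted p = 0.0573).

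Of the subunits these enzymes share, Ash2l rose and Wdr5 was not called. Ash2l, which stimulates the methyltransferase, had 110.2 ± 8.13 CPM at 0h and 170.4 ± 26.1 at 4h, rose in 4h vs 0h (0.62, adjusted p = 0.00021) and fell in rev vs 4h (-0.55, adjusted p = 0.000344). Wdr5 had 60.6 ± 0.428 CPM at 0h and 51.6 ± 4.97 at 4h (-0.23, adjusted p = 0.0573).

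The demethylases of H3K4 and H3K9 changed between 2h and 4h in 4 of 4 genes, 3 upward and 1 downward. Of all tested genes, 19.7% were higher and 19.2% lower in 4h vs 2h. Each of the 4 demethylases changed the other way in rev vs 4h. Both comparisons use the 4h libraries, so these directions are not independent of each other. KDM1A and the KDM5 proteins act on H3K4, and KDM4C acts on H3K9. At 0h, Kdm4c had 38.7 CPM in clone 4 and 46.6 and 46.6 CPM in clone 8, and at 2h it had 30.6 and 33.9 in clone 4 and 37.8 and 35.1 in clone 8. Kdm4c at 4h had 35.4 and 50.1 in clone 4 and 65.1 and 69.7 in clone 8, and in rev 29.7 and 28.8 in clone 4 and 37.1 and 39.2 in clone 8. At 4h the clone 8 libraries lay above all others, while 4h clone4_1 lay below the 0h libraries and within the range of 2h. Kdm4c was higher in 4h vs 0h (log2 fold change 0.37, SE 0.121, adjusted p = 0.0191), where scaling by total count gave -0.38, a call lost without 0h clone8_1, 0h clone8_2, 4h clone4_2, 4h clone8_1 or 4h clone8_2 (adjusted p of 0.0567 to 0.0987). It was also lost with the trend removed for GC (0.14, adjusted p = 0.388) or length (0.23, adjusted p = 0.17). It rose in 4h vs 2h (log2 fold change 0.66, SE 0.112, adjusted p = 9.05e-05) and fell in rev vs 4h (log2 fold change -0.70, SE 0.112, adjusted p = 6.91e-05), and it was higher in clone 8 than in clone 4 (log2 fold change 0.37, SE 0.0823, adjusted p = 0.00271).

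At 0h, Kdm5a had 51.2 CPM in clone 4 and 84.2 and 79.8 CPM in clone 8, and at 2h it had 67.0 and 70.0 in clone 4 and 93.8 and 92.8 in clone 8. Kdm5a at 4h had 53.2 and 51.3 in clone 4 and 72.6 and 75.0 in clone 8, and in rev 62.3 and 66.7 in clone 4 and 91.2 and 90.8 in clone 8. In each group every clone 8 library lay above every clone 4 library, so that the 4h and 2h ranges overlapped although both clones were lower at 4h. Kdm5a fell in 4h vs 2h (log2 fold change -0.37, SE 0.0796, adjusted p = 0.001) and rose in rev vs 4h (log2 fold change 0.30, SE 0.0796, adjusted p = 0.00587), both within the additive clone model. The clone difference (log2 fold change 0.52, SE 0.0589, adjusted p = 1.91e-06) had the lowest adjusted p of the 43 genes. Kdm5b, the gene with the highest CPM of the 43 at 0h (198 ± 7.75 CPM), reached 281 ± 16.1 at 4h and 213 ± 15.8 in rev. It rose in 4h vs 0h (0.50, adjusted p = 0.000103) and fell in rev vs 4h (-0.40, adjusted p = 0.000457). Kdm1a changed less, by 0.22 in 4h vs 2h (adjusted p = 0.0285) and -0.28 in rev vs 4h (adjusted p = 0.00949).

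Both H3K27 demethylases were higher in 4h vs 0h (20.5% of all tested genes were), and Kdm6b by more. KDM6B (JMJD3) is known as a demethylase induced by signals, and KDM6A (UTX), encoded on the X chromosome, is part of the KMT2C and KMT2D complexes. At 0h, Kdm6b had 49.7 CPM in clone 4 and 64.1 and 68.1 CPM in clone 8, and at 2h it had 99.1 and 91.8 in clone 4 and 72.0 and 79.4 in clone 8. Kdm6b at 4h had 185 and 189.6 in clone 4 and 94.7 and 112 in clone 8, and in rev 108 and 102 in clone 4 and 103 and 90.1 in clone 8. All libraries of 2h, 4h and rev lay above all of 0h, and the clone 4 libraries at 4h stood apart at the top. Kdm6b rose in 4h vs 0h (log2 fold change 1.16, SE 0.182, adjusted p = 0.000116) and in 4h vs 2h (log2 fold change 0.74, SE 0.161, adjusted p = 0.00171). In rev vs 4h it fell (log2 fold change -0.49, SE 0.161, adjusted p = 0.0284), a call lost without 2h clone4_1, 2h clone4_2, 4h clone4_1, 4h clone4_2, rev clone4_1, rev clone4_2 or rev clone8_2 (adjusted p of 0.0509 to 0.108), and with the trend removed for GC (-0.38, adjusted p = 0.0776) or length (-0.37, adjusted p = 0.069). The fall in rev vs 4h was 0.84 in clone 4 (SE 0.119, adjusted p = 8.91e-05), and in clone 8 the change was -0.10 (SE 0.118, adjusted p = 0.603), a difference of 0.74 (SE 0.167, adjusted p = 0.0178). That difference was lost without 4h clone8_1, rev clone4_1, rev clone4_2 or rev clone8_1 (adjusted p of 0.0581 to 0.131), and with the GC trend removed (0.60, adjusted p = 0.0539). In rev vs 0h Kdm6b was higher (log2 fold change 0.66, SE 0.177, adjusted p = 0.0238), a call lost without 0h clone4_1, rev clone8_1 or rev clone8_2 (adjusted p of 0.0565 to 0.162). In 2h vs 0h it was not called (0.42, adjusted p = 0.181), with 0.94 in clone 4 (adjusted p = 0.000516) and 0.20 in clone 8 (adjusted p = 0.493). The antisense gene Kdm6bos covers 286 of its exon bases.

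At 0h, Kdm6a had 37.5 CPM in clone 4 and 44.3 and 40.2 CPM in clone 8, and at 2h it had 49.5 and 61.2 in clone 4 and 64.9 and 46.0 in clone 8. Kdm6a at 4h had 51.3 and 52.1 in clone 4 and 49.4 and 59.9 in clone 8, and in rev 44.6 and 57.0 in clone 4 and 44.7 and 52.9 in clone 8. The 2h, 4h and rev libraries all lay above the 0h libraries, though 2h clone8_2 and the lowest rev libraries by little. Kdm6a rose in 2h vs 0h (log2 fold change 0.45, SE 0.128, adjusted p = 0.0344), a call lost without 0h clone4_1, 0h clone8_1, 0h clone8_2, 2h clone4_2 or 2h clone8_1 (adjusted p of 0.0528 to 0.225) or with the GC trend removed (0.29, adjusted p = 0.103). In 4h vs 0h it was higher (log2 fold change 0.39, SE 0.129, adjusted p = 0.0187), where scaling by total count gave -0.33, a call lost without 0h clone4_1, 0h clone8_2 or 4h clone8_2 (adjusted p of 0.0793 to 0.114). It was also lost with the trend removed for GC (0.14, adjusted p = 0.265) or length (0.22, adjusted p = 0.155).

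Of the H3K9 methyltransferases, Ehmt2 was lower in all 3 later groups. EHMT1 and EHMT2 form a dimer that places the dimethyl mark, and SETDB1 silences endogenous retroviruses. At 0h, Ehmt2 had 67.3 CPM in clone 4 and 57.0 and 53.8 CPM in clone 8, and at 2h it had 44.8 and 32.5 in clone 4 and 32.2 and 47.2 in clone 8. Ehmt2 at 4h had 34.8 and 30.1 in clone 4 and 49.2 and 47.1 in clone 8, and in rev 39.3 and 31.9 in clone 4 and 40.6 and 41.3 in clone 8. All later libraries lay below those of 0h. Ehmt2 fell in 2h vs 0h (log2 fold change -0.58, SE 0.156, adjusted p = 0.0274), in 4h vs 0h (log2 fold change -0.55, SE 0.158, adjusted p = 0.00878) and in rev vs 0h (log2 fold change -0.62, SE 0.156, adjusted p = 0.0134). These rest in part on 0h clone4_1, the highest library: the first call was lost without 0h clone4_1, 2h clone4_2 or 2h clone8_1 (adjusted p of 0.101 to 0.35), the second lost without 0h clone4_1 (-0.35, adjusted p = 0.128) and the third lost without 0h clone4_1 or rev clone4_2 (adjusted p of 0.0528 to 0.213). With the GC trend removed the change in 2h vs 0h was -0.38 (adjusted p = 0.109). Within clone 8 Ehmt2 was not called in 2h vs 0h (-0.48, adjusted p = 0.19), 4h vs 0h (-0.20, adjusted p = 0.418) or rev vs 0h (-0.44, adjusted p = 0.179). Within clone 4, with 1 library at 0h, these changes were -0.80, -1.06 and -0.92. A difference between clones in these changes was not tested. The partner of Ehmt2, Ehmt1, had 64.0 ± 7.06 CPM at 0h, 51.7 ± 4.16 at 2h and 49.9 ± 5.72 in rev, and was not called (rev vs 0h -0.35, adjusted p = 0.057). Setdb1 (60.8 ± 8.59 CPM at 0h, 73.3 ± 11.3 at 4h) was not called between groups.

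Of the 3 class I deacetylases, 1 fell from 0h to 4h (18.9% of all tested genes did), and 2 did from 2h to 4h (19.2% of all). HDAC1 and HDAC2 are the catalytic subunits of the NuRD, Sin3 and CoREST corepressors, and HDAC3 that of NCoR and SMRT. At 0h, Hdac2 had 64.3 CPM in clone 4 and 71.7 and 76.8 CPM in clone 8, and at 2h it had 60.2 and 73.8 in clone 4 and 83.0 and 78.2 in clone 8. Hdac2 at 4h had 37.9 and 57.5 in clone 4 and 61.0 and 58.4 in clone 8, and in rev 64.2 and 72.9 in clone 4 and 68.1 and 74.7 in clone 8. The 4h libraries lay below those of 0h and rev, and 1 library of 2h reached into their range. Hdac2 fell in 4h vs 0h (log2 fold change -0.36, SE 0.118, adjusted p = 0.0182) and in 4h vs 2h (log2 fold change -0.45, SE 0.110, adjusted p = 0.00245), and rose in rev vs 4h (log2 fold change 0.38, SE 0.110, adjusted p = 0.0107). The first call was lost without 0h clone4_1 or 4h clone4_1 (adjusted p of 0.0507 to 0.0572), and the change was -0.62 with the GC trend removed. Hdac1, at 55.6 ± 2.28 CPM at 2h and 44.3 ± 8.91 at 4h, fell in 4h vs 2h (-0.33, adjusted p = 0.0185), and Hdac3 was not called in any group comparison.

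The acetyltransferases rose modestly in 4h vs 0h, in 2 of 2, against 20.5% of all tested genes. Ep300 went from 125 ± 3.76 CPM to 158 ± 13.6, by 0.32 (adjusted p = 0.0137). Crebbp went from 124 ± 10.8 to 169 ± 29.7, by 0.47 (adjusted p = 0.00191). Neither was called in 2h vs 0h, 4h vs 2h or rev vs 4h.

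The clones were next compared within the same model. Over all groups, 3 of the 43 genes were higher in clone 8 (Bmi1, Kdm4c and Kdm5a; 6.98%, against 10.4% of all genes) and 3 in clone 4 (6.98%, against 8.11%). The latter were Phf19 (-0.86, adjusted p = 0.000959), Kmt2a (-0.28, adjusted p = 0.00305) and Setdb1 (-0.26, adjusted p = 0.00593). The change from 2h to 4h differed between clones for 2 genes (4.65%, against 3.14% of all), Phf19 and Setd1b, and the change from 4h to rev for 1 (2.33%, against 2.8%), Kdm6b. Without single libraries these counts ran from 0 to 4 and from 0 to 2, and that of genes higher in clone 8 was 6 without 2h clone4_2. The first was 0 without 2h clone4_1, 2h clone8_1, 4h clone8_1 or 4h clone8_2, and the second 0 without 4h clone8_1, rev clone4_1, rev clone4_2 or rev clone8_1. Within clone 4, 28 of the 43 genes had a log2 fold change above 0 in 4h vs 0h, and within clone 8, 31 did. In rev vs 4h 14 and 11 were above 0. In the fit over both clones, 27 of the 43 genes and 51.6% of all tested genes were above 0 in 4h vs 0h. In rev vs 4h these were 15 of the 43 genes and 51.5% of all. The clone 4 values against 0h rest on 1 library at 0h. The median change in 4h vs 2h was 0.04 in clone 4 and 0.31 in clone 8, and this difference of medians was not tested.

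**Figure D3:**
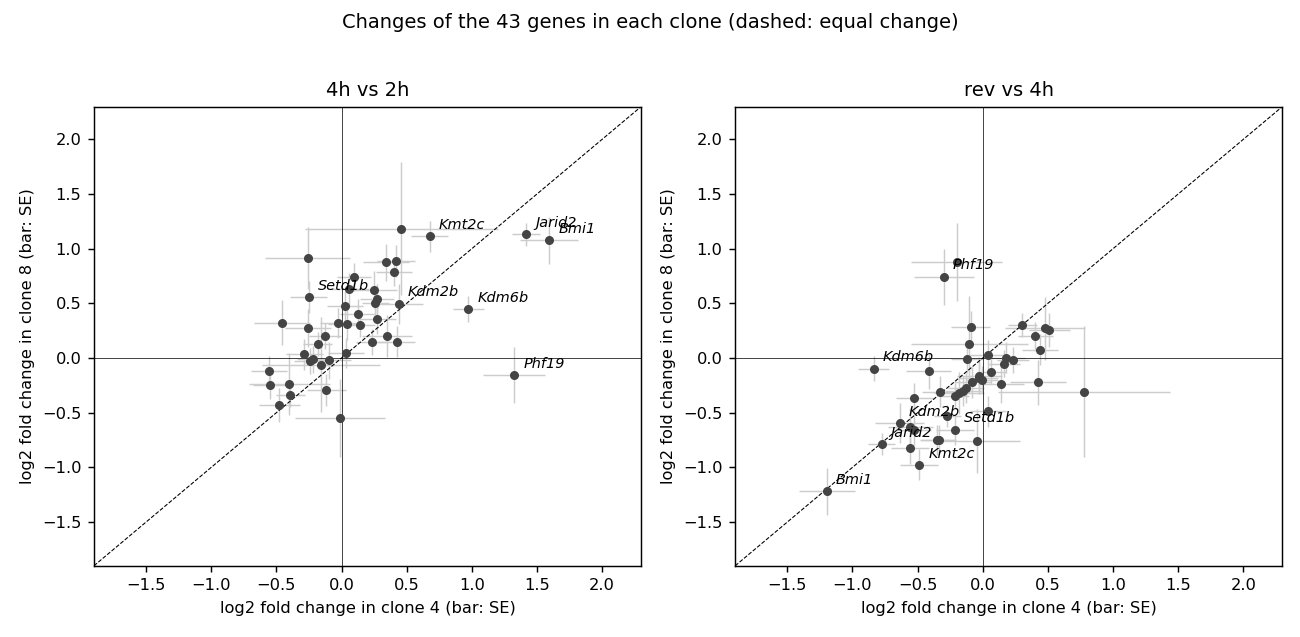
Log2 fold change in clone 8 (vertical axis) against clone 4 (horizontal axis) for each of the 43 genes, in 4h vs 2h and in rev vs 4h, with bars for the SE and a dashed line for equal change. Phf19 and Kdm6b lie below the line and Setd1b above it in 4h vs 2h, and Bmi1 and Jarid2 fall in both clones in rev vs 4h.

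Changes in 4h vs 0h and rev vs 4h moved with exon length across all tested genes, and these genes are long. Median exon length was 6487 bases over the 43 genes and 4349 over tested genes. Across 5 bins of rising length, the median log2 fold change of all tested genes in 4h vs 0h was -0.17, -0.03, 0.02, 0.08 and 0.15, and in rev vs 4h 0.15, 0.05, 0.02, -0.02 and -0.07. In 4h vs 0h, 29 of the 43 genes lay above the median of their bin, and 15 did in rev vs 4h. When the trend with length was removed, 10 were called higher (23.3%, against 14.6% of all) and 8 lower (18.6%, against 24.7%) in 4h vs 0h. In rev vs 4h, 4 were then higher (9.3%, against 20%) and 10 lower (23.3%, against 11%). Removing the trend also moved the median of all tested genes, to -0.11 in 4h vs 0h and 0.12 in rev vs 4h. The median of the 43 genes minus that of all genes was then 0.19 and -0.13, against 0.24 and -0.17 with the trend left in. The rises of Bmi1 (1.48), Phf19 (1.15), Kdm6b (1.00), Jarid2 (0.83) and Kmt2c (0.79) in 4h vs 0h remained called. The part of length itself in this was not tested.

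**Figure D4:**
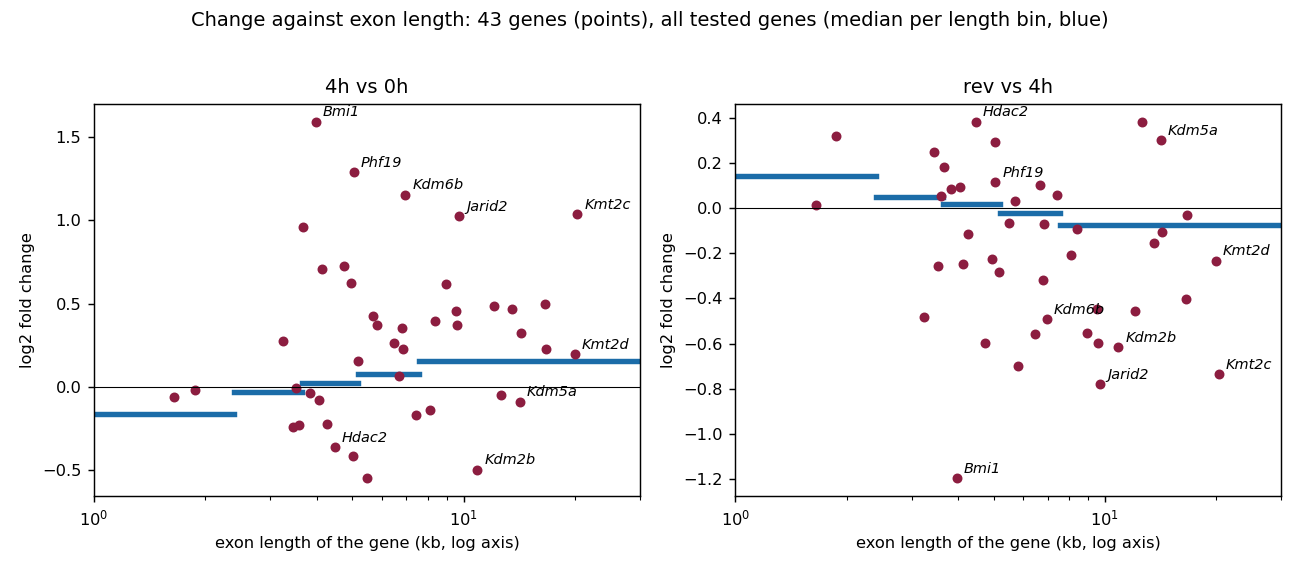
Log2 fold change (vertical axis) against exon length in kb (horizontal log axis) for the 43 genes (points) in 4h vs 0h and rev vs 4h, with the median of all tested genes in 5 length bins as blue lines. The blue lines climb with length in 4h vs 0h and descend in rev vs 4h, and Bmi1, Phf19, Kdm6b, Jarid2 and Kmt2c lie far above them in 4h vs 0h.

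Changes also moved with the GC content of the longest transcript of each gene, in the comparisons with 0h. Across 5 bins of rising GC, the median log2 fold change of all tested genes went from 0.20 in the lowest bin to -0.17 in the highest in 2h vs 0h, from 0.19 to -0.17 in 4h vs 0h and from 0.23 to -0.17 in rev vs 0h. In rev vs 4h the bin medians lay between -0.02 and 0.05. With this trend removed, 1 of the 43 genes was called higher (2.33%, against 3.2% of all) and 1 lower (2.33%, against 1.47%) in 2h vs 0h. With it removed in 4h vs 0h, 14 were higher (32.6%, against 15.6%) and 7 lower (16.3%, against 25.6%), and in rev vs 0h 3 were higher (6.98%, against 4.97%) and 3 lower (6.98%, against 4%). The median of all tested genes in 4h vs 0h then stood at -0.11. That of the 43 genes minus it was 0.25, against 0.24 with the trend left in. The rises of Bmi1 (1.29), Phf19 (1.24), Kdm6b (1.20), Jarid2 (0.89) and Kmt2c (0.89) in 4h vs 0h remained called, as did the falls of Kdm2b in 2h vs 0h (-0.90) and rev vs 0h (-1.07). Of the 55 calls of genes given by library, 14 were lost with the GC trend removed and 11 with the length trend removed. The part of GC content in these changes was not tested.

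Scaling set the direction of many calls at 4h. TMM fixes the median gene near 0, and scaling by total count put it at -0.73 in 4h vs 0h, while in rev vs 4h it stood at 0.45. With that scaling 1 of the 43 genes was called higher (2.33%, against 3.54% of all) and 15 lower (34.9%, against 46.2%) in 4h vs 0h, and 4 higher (9.3%, against 20.6%) and 0 lower (0%, against 2.81%) in rev vs 4h. The median of the 43 genes minus that of all genes was 0.24 with TMM and 0.26 with total counts in 4h vs 0h, and -0.17 and -0.22 in rev vs 4h. Changes given here are therefore relative to the bulk of tested genes. Bmi1 was the gene still called higher in 4h vs 0h with total counts (0.86, adjusted p = 0.0223), and Kdm2b (-1.24), Ehmt2 (-1.29), Pcgf6 (-1.18) and Hdac2 (-1.11) were among those called lower.

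Further partners of these complexes were looked at from 6 lists with 108 other genes, of which 107 were tested. The shares of all tested genes stand beside each total. In 2h vs 0h, 5 (4.67%, against 3.98%) rose and 4 (3.74%, against 2.46%) fell. Of the same genes, 37 were higher (34.6%, against 20.5%) and 15 lower (14.0%, against 18.9%) in 4h vs 0h, with a median log2 fold change of 0.17. In rev vs 4h, 8 were higher (7.48%, against 15.1%) and 36 lower (33.6%, against 15.6%), with a median of -0.15. The same shares of all genes apply to the single lists. Of 23 further PRC2 and PRC1 partners, 9 were higher (39.1%) and 4 lower (17.4%) in 4h vs 0h, and 3 higher (13.0%) and 9 lower (39.1%) in rev vs 4h. Of 11 tested partners of H3K4 methyltransferases, 3 were higher (27.3%) and 0 lower in 4h vs 0h, and 0 higher and 4 lower (36.4%) in rev vs 4h. Of 24 further deacetylases and corepressors, 10 were higher (41.7%) and 4 lower (16.7%) in 4h vs 0h, and 0 higher and 9 lower (37.5%) in rev vs 4h. Of 13 further demethylases, 5 were higher (38.5%) and 1 lower (7.69%), then 1 higher (7.69%) and 4 lower (30.8%). Among 23 further methyltransferases and H3K9 partners the shares were near those of all genes, with 5 higher (21.7%) and 4 lower (17.4%) in 4h vs 0h and 3 higher (13.0%) and 5 lower (21.7%) in rev vs 4h. Among 13 further acetyltransferases and bromodomain genes, 5 were higher (38.5%) and 2 lower (15.4%), then 1 higher (7.69%) and 5 lower (38.5%).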

How the data were processed

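RNA-seq of ribosome-depleted total RNA was made from 15 libraries. The deposited table holds raw read counts per Ensembl gene, which the authors had not normalised, as its whole numbers show. STAR 2.5.3a, bcl2fastq 2.19.1 and mm10 are named, per the submitters' processing notes, and the counting tool, annotation and strand setting are not given in the sources used here. Gene structures came from GENCODE M21, which held 52489 of the 52636 identifiers.

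Counts were tested with edgeR 4.0.16 (R 4.3.3, limma 3.58.1) by its quasi-likelihood F test. Genes were filtered with filterByExpr (minimum count 10, minimum total 15), scaled by TMM and fitted over all 15 libraries with a term for each group and 1 for the clone. Clone differences came from a fit in which every combination of group and clone had its own coefficient. P-values were adjusted by Benjamini-Hochberg over 13451 genes, with a threshold of 0.05. Total counts per library ran from 1552022 to 13004556. The fit was tested on simulated data.

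The 43 genes and all lists were chosen with earlier results of these data known. Values by library are given for genes called in 2h vs 0h or rev vs 0h, for the called genes that rose most and those that fell most (5 in each direction) in 4h vs 0h and in rev vs 4h, for the 3 with the largest clone difference and for those called in a test of a clone difference. Alternatives were RLE and total count scaling, no filter, DESeq2 1.42.0, only the groups compared, no clone term, a replicate block, thinning to the total count of the shallowest library (which leaves the depth over tested genes unequal), removal of the trend with length or GC, dropping mitochondrial genes together with the top 20 by abundance, leaving out each library and, added after the data were seen, the earlier edgeR dispersion estimate. Batch, lane and date were not used here.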

Additional observations from a re-analysis of the deposited data

Results flagged for a closer look

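In 3 of the 51 groups of 4 libraries examined, 1 library stood apart by Dixon's ratio of gap to range (above the 95% critical value), and chance gives about 1 in 20. Bmi1 had 14.1 CPM in 4h clone4_1 and 21.1 to 21.4 in the other 4h libraries (ratio 0.961). Hdac2 had 37.9 CPM in the same library and 57.5 to 61.0 in the others (0.849). Pcgf6 had 34.7 CPM in rev clone8_1 and 33.1 to 33.3 in the other rev libraries (0.893).

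The change of 3 genes differed between the clones by the test of the difference itself, edgeR's quasi-likelihood test of the interaction. For 4h vs 2h, clone 8 minus clone 4 was -1.48 for Phf19 (adjusted p = 0.0206) and 0.81 for Setd1b (adjusted p = 0.0329). For rev vs 4h it was 0.74 for Kdm6b (adjusted p = 0.0178).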

How the results depend on the processing

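Over 55 called results of the genes given by library, leaving out 1 library gave 825 fits, of which 730 stayed called and 95 did not, with 0 reversed. Other settings gave 639 values, of which 525 stayed called, 107 were no longer called and 7 reversed, all 7 with total count scaling. Those were 4h vs 0h for Suz12 (-0.0872), Mtf2 (-0.29), Setd1b (-0.22), Kdm4c (-0.38) and Kdm6a (-0.33), and 4h vs 2h for Cbx2 (-0.18) and Kdm2b (-0.0864), each above the shift of the median gene (-0.73 and -0.57). Thinning every library to the total count of the shallowest left 40 of the 43 genes tested. Thinning does not equalise the counts outside abundant and mitochondrial genes. The part of the low depth at 4h in what could be called was not tested.

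Counts of called genes moved by over 1.5 times as follows, and the cause was not tested. With total count scaling, 2h vs 0h had 0 higher and 1 lower, 4h vs 0h 1 higher and 15 lower, 4h vs 2h 2 higher and 10 lower, rev vs 4h 0 lower, rev vs 0h 1 higher, clone 8 vs clone 4 0 higher and 1 lower, and both clone differences 0. With thinning, 2h vs 0h had 0 higher, 4h vs 0h 0 lower, 4h vs 2h 2 lower, rev vs 4h 0 higher, rev vs 0h 2 higher and 1 lower, and both clone differences 0. With the length trend removed, 4h vs 0h had 10 higher and 8 lower, 4h vs 2h 7 higher and 7 lower, rev vs 0h 3 higher and the clone difference in 4h vs 2h 1. With the GC trend removed, 2h vs 0h had 1 higher and 1 lower, 4h vs 0h 7 lower, 4h vs 2h 10 higher and 7 lower, rev vs 0h 3 higher and the clone difference in rev vs 4h 0. With no filter, 2h vs 0h had 5 higher and 4h vs 0h 12 higher. With DESeq2, 2h vs 0h had 6 lower, rev vs 0h 5 lower and the clone difference in 4h vs 2h 0. With no clone term, 2h vs 0h had 0 higher, rev vs 4h 1 higher and rev vs 0h 3 higher. Without the abundant and mitochondrial genes, 2h vs 0h had 4 higher and rev vs 0h 5 lower. Fitting only the groups compared gave 7 lower in rev vs 0h, and the earlier dispersion estimate 4.

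Leaving out 1 library at a time gave, for 2h vs 0h, 0 to 7 higher and 1 to 4 lower; for 4h vs 0h, 13 to 20 and 0 to 5; for 4h vs 2h, 13 to 17 and 3 to 5. It gave 2 to 4 higher and 12 to 16 lower in rev vs 4h, 1 to 6 and 1 to 3 in rev vs 0h, 3 to 6 and 3 to 4 in clone 8 vs clone 4, and 0 to 4 and 0 to 2 for the clone differences in 4h vs 2h and rev vs 4h.

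Deviations of same-numbered libraries of a clone had correlations of -0.183 to 0.254 between groups across genes. Each value rests on 1 difference per group and clone, so whether the numbers pair the samples was not settled. A replicate block gave 1 higher in 2h vs 0h and 2 higher in rev vs 0h, and 5 of 48 results were no longer called: Kdm6a in 2h vs 0h (adjusted p = 0.0606), Suz12, Rnf2 and Kdm6b in rev vs 0h (0.0651, 0.0596 and 0.0707) and Kdm6b in rev vs 4h (0.0632).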
